A study of Mus musculus with 2 samples.

Results

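Mir22, Mir132 and Mir212 are 3 miRNA genes known from studies of heart muscle growth. They were taken as 3 of the 1973 miRNA genes in the count tables by matching Ensembl identifiers, without their versions, to gene symbols in GENCODE, and all 3 were found. The samples were hearts of B6NCrl mouse embryos at embryonic day 16.5 (E16.5), pooled from males and females that the labels call healthy, with no treatment or altered genotype named. Small RNA was sequenced in 2 libraries, each labelled a biological replicate. The pool of replicate 2 came from 41 embryos, and a pool hides variation between embryos. There was a single group, so the measurements describe the level of each gene and how far the 2 pools differed.

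miRNAs are short RNAs cut from a hairpin precursor, and each arm of the hairpin can give a mature miRNA. Bases 2 to 8 of the mature miRNA, the seed, do most of the pairing with messenger RNA, and the paired messenger RNA is then repressed. In adult mice, miR-22, miR-132 and miR-212 are known to promote hypertrophy, the enlargement of heart muscle cells under load. Foxo3, a brake on muscle cell growth, is a known target of miR-132 and miR-212, and the deacetylase Sirt1 is a known target of miR-22. miR-132 is also well known in neurons, where the transcription factor CREB induces it.

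All 3 genes lay on the plus strand of chromosome 11 (GRCm38, the assembly also called mm10). Mir212 (ENSMUSG00000065590.1) spanned chr11:75173388-75173478 and Mir132 (ENSMUSG00000065537) chr11:75173682-75173747, with 203 bases between them. Both were intronic in the non-coding gene 1700016P03Rik, Mir212 upstream of Mir132 in the direction of transcription. Mir22 (ENSMUSG00000065529.1) spanned chr11:75463716-75463810, 289968 bases downstream of Mir132. It lay within exon 2 of both annotated transcripts of Mir22hg, its non-coding host gene. It also overlapped an exon of 1 of the 4 transcripts of Tlcd2, a protein-coding gene on the same strand. The count tables list Mir132 under an earlier version of its identifier than the annotation used for this position, so the interval that was counted may differ from the one printed.

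**Figure D1:**
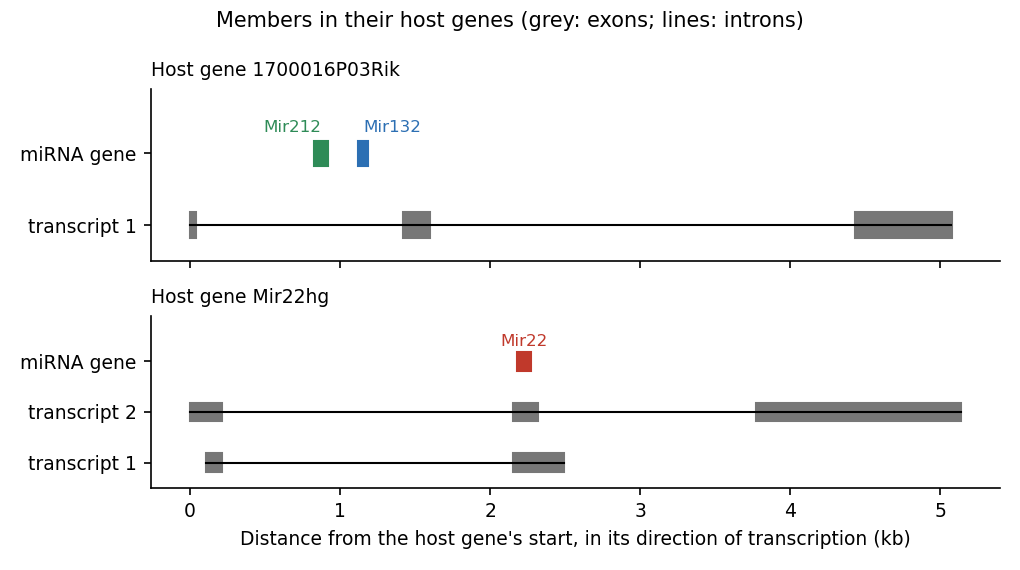
Position of each miRNA gene in its host gene, as distance in kb from the host's start along the direction of transcription, with exons as grey boxes, introns as lines and 1 row for each annotated transcript. Mir212 and Mir132 sit in the same intron of 1700016P03Rik, and Mir22 sits in an exon of both Mir22hg transcripts.

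The mature sequences are shown because they divide the 3 genes into 2 groups. They are from RefSeq (GRCm38.p6), 5′ to 3′, with the seed in capitals. All 3 genes were matched there by symbol.
miR-132-3p: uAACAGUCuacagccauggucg
miR-212-3p: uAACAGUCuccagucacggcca
miR-22-3p: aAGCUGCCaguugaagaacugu
miR-132-5p: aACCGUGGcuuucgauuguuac
miR-212-5p: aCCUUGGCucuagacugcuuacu
miR-22-5p: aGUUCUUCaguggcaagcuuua

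miR-132-3p and miR-212-3p had the same seed, and no other of the 1679 mature miRNAs named in the RefSeq table had it. They were identical over their first 9 bases and at 17 of 22 positions in all. Counted from the 5′ end, miR-132-3p first, they differed by A10C, C14U, U17C, U20C and G22A. The seeds of the 5p arms of Mir132 and Mir212 differed. Neither seed of Mir22 was found in another mature miRNA of the table. By sequence, then, the 3p arms of Mir132 and Mir212 form a family and Mir22 stands alone.

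The hairpins are shown because the counts are per hairpin gene and do not separate its arms. The mature arms are in capitals.
Mir212 hairpin: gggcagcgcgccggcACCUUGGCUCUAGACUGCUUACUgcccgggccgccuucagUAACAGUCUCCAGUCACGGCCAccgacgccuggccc
Mir132 hairpin: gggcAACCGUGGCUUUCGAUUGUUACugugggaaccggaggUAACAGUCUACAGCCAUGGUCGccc
Mir22 hairpin: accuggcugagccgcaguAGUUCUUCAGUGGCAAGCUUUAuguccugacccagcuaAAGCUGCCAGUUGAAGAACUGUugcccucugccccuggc

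The hairpin of Mir212 had 91 bases and a GC content of 69.2%, above 97.2% of the 316 detected genes whose hairpin was in RefSeq at the same position. Mir132 (66 bases, 57.6% GC) and Mir22 (95 bases, 55.8% GC) lay closer to the median of 50.7% GC. The folding energies computed from sequence were -41.5 kcal/mol for Mir212, -37.2 kcal/mol for Mir132 and -41.9 kcal/mol for Mir22. Of all reads, 29.5% in replicate 1 and 31.9% in replicate 2 matched more than 1 place and do not enter any gene's count. The longest stretch that a member shared with any of the other 1004 RefSeq hairpins was 11 bases for Mir22 and for Mir212, and 10 bases for Mir132. Mir132 and Mir212 shared no stretch above 10 bases, so a full-length mature read of one is not also a read of the other. Matches outside these hairpins were not analysed here.

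Levels are given as CPM, counts per 1000000 of all counts at miRNA genes on the sense strand, 6473482 in replicate 1 and 5841568 in replicate 2. They are not divided by hairpin length, since the labels limit the libraries to small RNA by a size range. Means are given with the SD over the 2 libraries (n = 2), and intervals in a library are Wilson 95% intervals, which cover counting error only.

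Mir22 had 68144 counts in replicate 1 and 58843 in replicate 2, or 10527 CPM (95% interval 10448 to 10606) and 10073 CPM (9992 to 10154). It was abundant in both pools, with a mean of 10300 ± 321 CPM, and ranked 22 of all listed genes. Mir132 had 1398 counts in replicate 1 and 1070 in replicate 2, or 216 CPM (205 to 228) and 183 CPM (173 to 194). Its mean was 199.6 ± 23.2 CPM at rank 147, above 59.7% of the 365 genes with 10 or more counts in each library, which are called detected here. Mir212 had 137 counts in replicate 1 and 91 in replicate 2, or 21.2 CPM (17.9 to 25.02) and 15.6 CPM (12.7 to 19.1). Its mean was 18.4 ± 3.95 CPM at rank 255, above 30.1% of detected genes. The order Mir22, Mir132, Mir212 was the same in both libraries, and the levels of the 3 genes did not overlap.

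**Figure D2:**
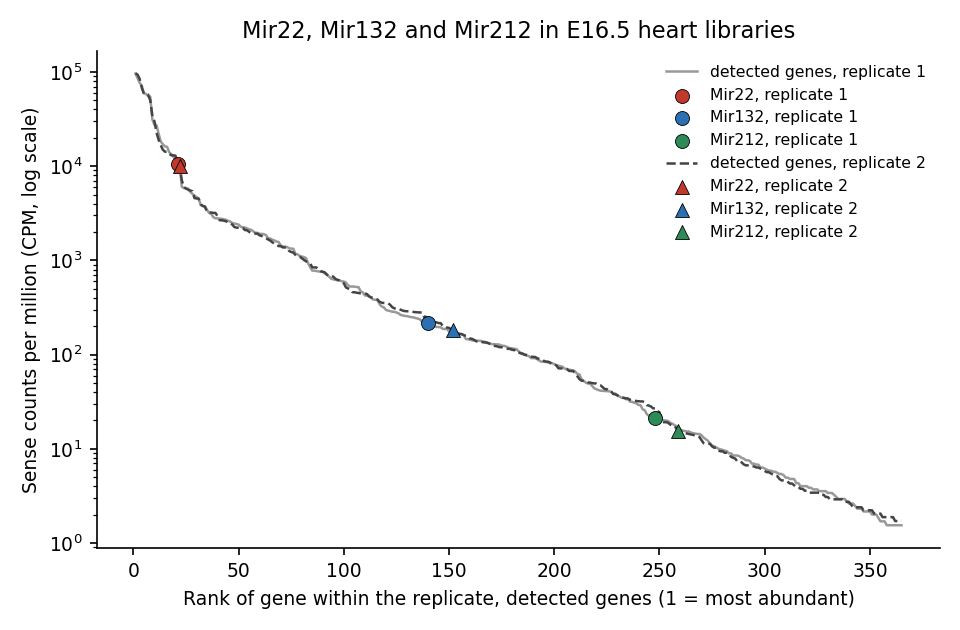
CPM on a log axis against rank for the 365 detected genes in each replicate, lines for all genes and marked points for the 3 members (circles for replicate 1, triangles for replicate 2). Mir22 lies near the top of both curves, Mir132 near the middle at 216 and 183 CPM, and Mir212 in the lower part at 21.2 and 15.6 CPM.

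Together the 3 genes held 1.05% ± 0.035 of sense counts. Nearly all of this was Mir22, with 97.9% ± 0.19 of the members' counts, against 1.89% ± 0.16 for Mir132 and 0.174% ± 0.032 for Mir212. None of the 3 genes had a count on the opposite strand in either library. Since 3 counts are the upper limit for a count of 0, their level there was at most 0.463 CPM in replicate 1 and 0.514 CPM in replicate 2. The values on the sense strand and on either strand therefore rest on the same reads.

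In the order of levels, several neighbours did not differ from the members beyond the spread between pools. Mir652 stood just above Mir22 at 10362 ± 178 CPM, a smaller gap than either SD. The next gene below Mir22 was Mir208a, the miRNA of the alpha myosin heavy chain gene, at 6556 ± 746 CPM. That gap was larger than both SDs. Mir132 lay between Mir700 (201.7 ± 11.2 CPM) and Mir224 (199.2 ± 3.89 CPM), and Mir212 between Mir702 (18.9 ± 1.61 CPM) and Mir19a (17.5 ± 0.12 CPM). Each of these 4 gaps was smaller than the SD of the member beside it.

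The genes most like each member were found by distance between their log2(CPM + 1) values over the 2 libraries, which compares levels in 2 samples of 1 group only. Nearest to Mir22 were Mir652 (distance 0.071), Mir30d (0.40) and Mir30a (0.55). Nearest to Mir132 were Mir700 (0.091), Mir540 (0.14) and Mir302d (0.16). Nearest to Mir212 were Mir702 (0.20), Mir3061 (0.23) and Mir1955 (0.24). Of these 9 genes only Mir3061 lies on chromosome 11, and it was none of the genes within 1 Mb of a member.

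Of the 1973 listed genes, 1894 were matched to GENCODE and so had a position. Among these, 2 other miRNA genes lay within 1 Mb of a member. Mir6926, on the minus strand, had 1 count in replicate 1 and 0 in replicate 2. Mir3971, 87619 bases from Mir22 on the same strand, had 0 counts in both libraries. Among the matched genes, the 3 members were thus the only detected ones in this stretch of chromosome 11.

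Mir132 and Mir212 lie in 1 intron but were counted at very different levels. Mir132 had 10.2 times the counts of Mir212 in replicate 1 (exact 95% interval 8.56 to 12.3) and 11.8 times in replicate 2 (9.49 to 14.7). The intervals overlapped, and the log2 ratio was 3.45 ± 0.14. Per base of hairpin the log2 ratio was 3.92, since the Mir212 hairpin is longer. Mir22 exceeded Mir132 by 48.7 times in replicate 1 (46.2 to 51.4) and 54.99 times in replicate 2 (51.8 to 58.5), with a log2 ratio of 5.69 ± 0.12. These intervals did not overlap, so this ratio differed between the pools by more than counting error. Mir22 exceeded Mir212 by a log2 ratio of 9.15 ± 0.27. These are ratios of read counts of different miRNAs, and a difference in how efficiently each enters a library was not tested.

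To place the ratio of Mir132 to Mir212, the same ratio was computed for all pairs of neighbouring detected miRNA genes on 1 strand and at most 1000 bases apart, a comparison chosen after the values were seen. There were 66 such pairs, and the median size of the log2 ratio within a pair was 3.34, with quartiles of 1.55 and 5.28. The pair of Mir132 and Mir212 lay close to the median, with 32 pairs differing more. Of the 66 pairs, 35 differed by at least 8-fold, and the downstream gene had more counts in 31, as Mir132 did. With pairs up to 10000 bases apart, 53 of 110 pairs differed more than Mir132 and Mir212. RefSeq gave mature arms for both genes of 65 pairs, and in 16 pairs an arm of each gene had the same seed. The median was 2.05 in those 16 pairs and 3.60 in the other 49, and 4 of the 16 differed more than Mir132 and Mir212. Genes with near-identical copies lose reads that match several places, so part of these ratios is uncertain. The members shared no such stretch with another hairpin of the table.

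**Figure D3:**
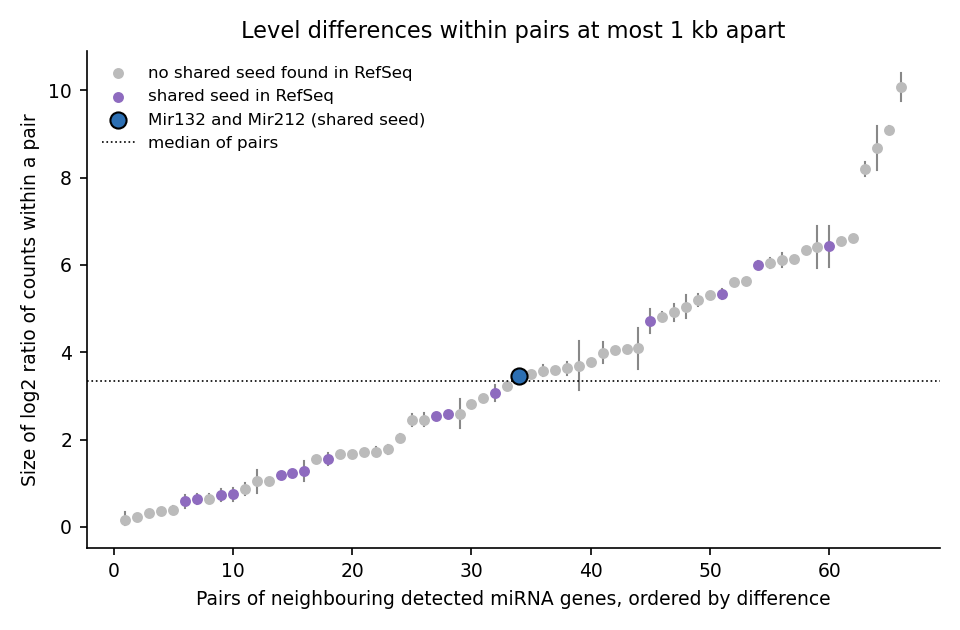
Size of the log2 ratio of counts within each of the 66 pairs of neighbouring detected miRNA genes, ordered from smallest to largest, with points for the mean and vertical lines joining the 2 replicates. Pairs whose genes share a seed are purple, and the pair of Mir132 and Mir212, at 3.45, lies next to the dotted median of 3.34.

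Each detected gene was then tested for a difference between the pools. A two-sided exact binomial test set its 2 counts against TMM-scaled library sizes, with Benjamini-Hochberg adjustment over the 365 genes. The test compares these 2 libraries on counting error alone, not conditions. A call required a 2-fold difference as well as an adjusted p under 0.05. By this criterion 12 genes (3.29%) were called, and none of the 3 members was among them. All 3 members had fewer counts per scaled library in replicate 2, as did 172 of the 365 detected genes. Mir22 was 1.03-fold lower (log2 ratio -0.038, adjusted p = 9.81e-06), Mir132 1.16-fold lower (-0.21, adjusted p = 0.000876) and Mir212 1.33-fold lower (-0.41, adjusted p = 0.0689), by the exact binomial test. Without a minimum fold, Mir22 and Mir132 passed and Mir212 did not. That criterion was passed by 46.3% of detected genes, and by 20.3% in the direction of the members, so passing it does not set the members apart.

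The sizes of these differences were ordinary for the libraries. The median size of the log2 ratio over detected genes was 0.21, the same as for Mir132 to 2 decimals. Mir22 was among the genes that differed least, ranking 317 of 365 by size, while Mir212 ranked 100. EdgeR's estimate of the spread between the 2 pools was a biological coefficient of variation of 17.6%. With this spread added to the counting error, edgeR's exact test gave an unadjusted p of 0.92 for Mir22, 0.56 for Mir132 and 0.33 for Mir212. The adjusted p was 1 for each of the 3 genes. The spread was estimated from the same 2 libraries that were compared, so this test cannot decide whether the members differed between them. The ratio of Mir132 to Mir212 differed between the pools by 0.20 on the log2 scale, against a median of 0.20 over the 66 neighbouring pairs.

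**Figure D4:**
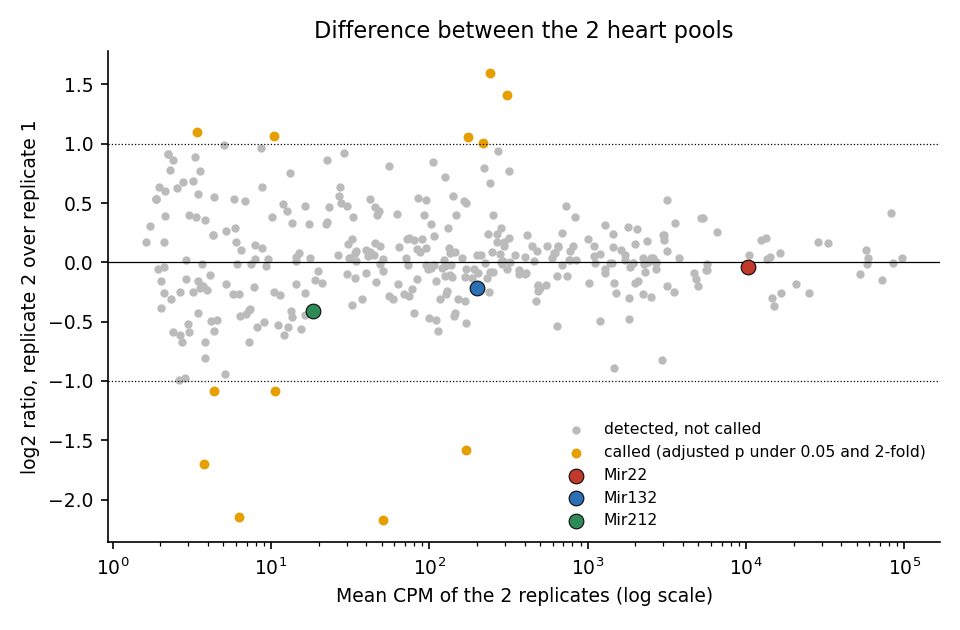
Log2 ratio of replicate 2 over replicate 1 against mean CPM (log axis) for the 365 detected genes, with the 12 called genes in orange, the 3 members in colour and dotted lines at a 2-fold difference. The members lie below 0 at -0.038, -0.21 and -0.41, inside the 2-fold lines.

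The other miRNAs with a known part in heart muscle growth were read from 2 lists, of which the one of promoting miRNAs includes the 3 members. All 16 promoting genes were in the count tables, and 15 were detected. By mean level Mir22 stood at place 4 in this list, Mir132 at place 11 and Mir212 last among the detected genes. Above Mir22 stood Mir208b (58261 ± 1172 CPM), the miRNA of the beta myosin heavy chain gene, Mir23a (20535 ± 2122 CPM), which represses an atrophy ubiquitin ligase, and Mir21a (14148 ± 117 CPM), known from fibroblasts of the stressed heart. The list held 11.6% ± 0.30 of sense counts and the median gene 502 CPM, against 108 CPM over all detected genes. Mir208a, Mir208b and Mir499, which also serve below as heart muscle markers, made up 6.74% ± 0.041 of sense counts within that share. The list was chosen with earlier results of these data known, so its median is no test of promoting miRNAs. Between the pools 0 of 15 were called with the 2-fold minimum. Over all detected genes 3.29% were. Without that minimum, 5 were higher in replicate 2, 6 lower and 4 did not pass, against 95 higher and 74 lower of all 365 detected genes (46.3% passing). The median log2 ratio was 0.036 against 0.018 over all detected genes.

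Of the list of miRNAs known to restrain growth, 18 of 21 named genes were matched by symbol and 14 were detected. Mir1a-2, Mir9-1 and Mir378a were not matched, which does not show that they were not counted. The highest were Mir26b (32861 ± 2274 CPM), Mir30a (13481 ± 43.1 CPM), Mir98 of the let-7 family (5684 ± 247 CPM) and Mir541 (1437 ± 70.8 CPM). Mir22 would stand between Mir30a and Mir98 in this order, and Mir132 and Mir212 below Mir541. Among the lowest detected genes were Mir133b (4.32 ± 0.43 CPM), Mir133a-1 (2.67 ± 0.38 CPM) and Mir1a-1 (2.41 ± 0.74 CPM), and Mir133a-2 was not detected. This list held 5.40% ± 0.22 of sense counts, with a median of 56.6 CPM. The shares of both lists depend on which genes of a family were named. Mirlet7i (56944 ± 2111 CPM) and Mirlet7g (52420 ± 3280 CPM) are outside the restraining list, and Mir23b (16606 ± 2335 CPM) is outside the promoting list. Of the 15 restraining genes in RefSeq, 9 shared a 20-base stretch with another hairpin, against 4 of 16 promoting genes. The share of the restraining list therefore leaves out any reads common to several genes. Mir1a-1, Mir133a-1 and Mir133a-2 were not among those 15, so for them such sharing was not tested. Between the pools 0 of 14 were called with the 2-fold minimum, against 3.29% of all detected genes. Without it 6 were higher in replicate 2, 1 lower and 7 did not pass. Of all 365 detected genes, 95 were higher and 74 lower (46.3% passing). The share passing was thus near that of all detected genes, while the split by direction was less even. The median log2 ratio was 0.13, against 0.018 over all detected genes.

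**Figure D5:**
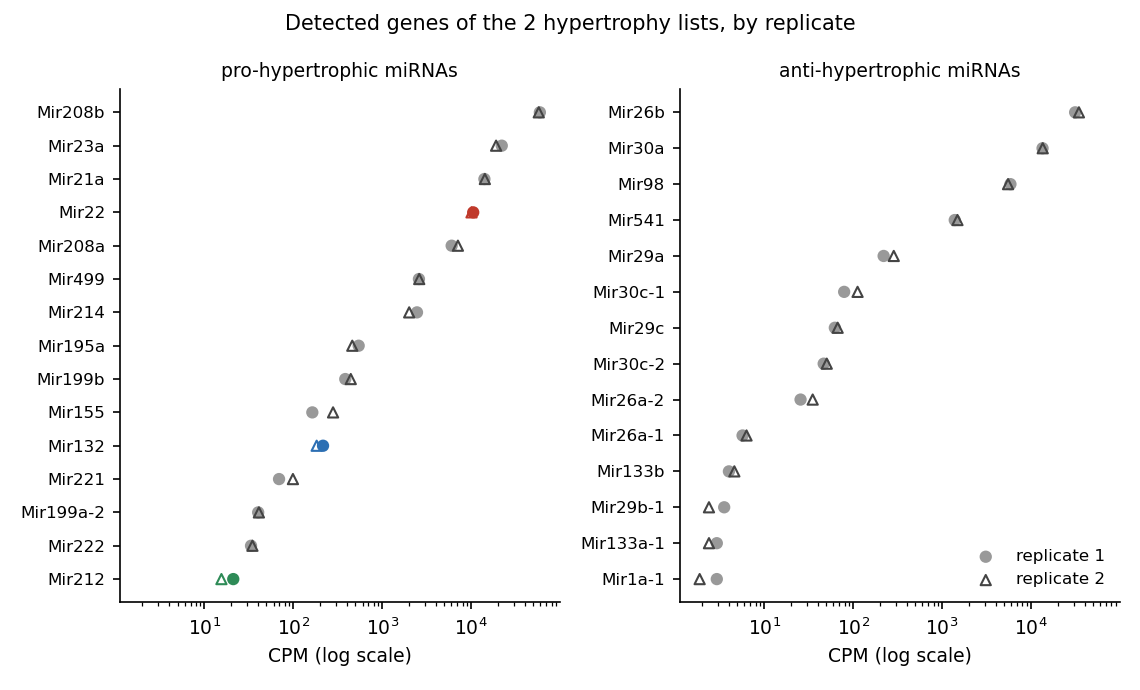
CPM on a log axis of the detected genes of the lists of promoting (left, 15 genes) and restraining (right, 14 genes) miRNAs, with circles for replicate 1 and triangles for replicate 2 and the members in colour. Mir22 stands at place 4 from the top of the left panel, and Mir212 at its foot at 21.2 and 15.6 CPM.

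Because miRNAs of other cell types are present in whole hearts, marker miRNAs were read beside the members. Fewer cells of a type and less RNA per cell cannot be told apart in such bulk samples. The heart muscle markers Mir208b, Mir208a and Mir499 were all detected and held 6.74% ± 0.041 of sense counts. The miR-1 and miR-133 genes of the restraining list, also known from heart muscle, had few counts. In replicates 1 and 2 Mir1a-1 had 19 and 11, Mir133a-1 19 and 14, Mir133a-2 0 and 3 and Mir133b 26 and 27. Of these only Mir133b was matched in RefSeq. For the others, whether low counts leave out shared reads was not tested. The neuronal list, of interest because Mir132 and Mir212 are also known from neurons, held 0.101% ± 0.010, with 10 of 16 listed genes detected. Its summed level was 934 CPM in replicate 1 and 1078 CPM in replicate 2, higher in the pool where Mir132 and Mir212 had lower values. Its genes did not move together. Mir128-1 (188 and 293 CPM) and Mir128-2 (76.2 and 134 CPM) carried most of the difference in the sum. At 94 counts in replicate 1 and 39 in replicate 2, Mir153 was lower in replicate 2 like the members. It was the 1 called gene of the 10 detected in the list, against 3.29% of all detected genes. Mir134, the highest gene of the list at 402.1 ± 25.1 CPM and above Mir132, was lower there too (log2 ratio -0.10, adjusted p = 0.0304 by the exact binomial test). It lies on chromosome 12, 292 bases downstream of Mir382 (1281 ± 74.3 CPM) and 522 bases upstream of Mir668 (32.3 ± 2.69 CPM). Neither of these neighbours is in the neuronal list. Whether the reads of Mir134 came from neurons was not tested. Without a minimum fold 4 genes of the list were higher in replicate 2, 2 lower and 4 did not pass. Of all 365 detected genes, 95 were higher and 74 lower (46.3% passing). The defining miR-124 genes Mir124a-1 and Mir124a-2 had 1 count each in replicate 1 and 0 in replicate 2, and Mir124a-3 had 0 in both. Of the 13 neuronal genes in RefSeq, 10 shared a 20-base stretch with another hairpin, so these sums leave out reads common to several copies. The 3 miR-124 genes were not among those 13, so whether their low counts leave out shared reads was not tested. The part of neurons in the levels of Mir132 and Mir212 was not tested.

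Other marker lists spanned a wide range. Smooth muscle markers, led by Mir143 (96423 ± 348 CPM), held 9.77% ± 0.053 of sense counts, and the endothelial Mir126a 8.50% ± 0.12. Epithelial markers, led by Mir429 (1819 ± 443 CPM), held 0.466% ± 0.083, and erythroid markers, led by Mir451a (1511 ± 209 CPM), 0.196% ± 0.022. Of 4 named leukocyte markers, 3 were matched by symbol. These, led by Mir223 (402.0 ± 3.79 CPM), held 0.0652% ± 0.0092, and the hepatocyte marker Mir122 stood at 161 ± 0.97 CPM. Mir146a was not matched. The same gene was counted under the symbol Mir146 at 93.1 ± 17.0 CPM and is left out of the leukocyte share. The summed levels did not shift in 1 direction between the pools. The epithelial sum was 5240 CPM in replicate 1 and 4073 CPM in replicate 2, lower in the same pool as the members, with 5 genes lower and Mir205 higher (616 and 843 CPM) past the test without a minimum fold. The erythroid sum was 2118 and 1805 CPM, mostly through Mir451a (1658 and 1363 CPM), while Mir144 and Mir486 did not pass. The leukocyte sum without Mir146 was 586 and 717 CPM, with 2 of its 3 genes higher in replicate 2 and 0 lower. Mir146 was higher there too (81.1 and 105 CPM, adjusted p = 1.09e-05 by the exact binomial test). Both smooth muscle genes were higher in replicate 2 (sums of 97336 and 98086 CPM). Over all detected genes 46.3% passed without a minimum fold, 95 genes higher in replicate 2 and 74 lower. The part of these cell types in the members' differences was not tested.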

How the data were processed

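Each deposited table holds raw counts of reads per miRNA gene for 1 library, made on build mm10 with annotation M4 per the deposited file lists. The aligner, counter and trimming are not given in the sources used here. Of the 3 columns, the first is the sum of the other 2, and of those 2, one per strand, the one with more gene counts in both libraries was taken as sense. The 4 lines that name no gene (unmapped, matching several places, outside genes, ambiguous) were left out of gene totals, which held 42.6% and 45.3% of 15207730 and 12885555 reads. Identifiers were matched to GENCODE M21 (1894 of 1973).

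CPM, Wilson and Clopper-Pearson intervals and exact binomial tests were computed in Python 3.11.15 with scipy 1.17.1. TMM factors and the dispersion came from edgeR 4.0.16 with an intercept only, in R 4.3.3. With 1 group, edgeR's quasi-likelihood test had no contrast. For log2 ratios 0.5 was added to each count. Hairpins were folded with RNAfold 2.7.2. The binomial test was tested on simulated counts with counting error alone, which does not test it under variation between pools. Alternatives were other scalings (DESeq2 1.42.0 among them), count filters, strands, fold minimums and leaving out each replicate.

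The members and gene lists were chosen with earlier results of these data known. Besides the members, the rule for named genes took the 3 nearest in level to each member, those within 1 Mb, those sharing a seed, the 4 highest of each growth list and the highest of each marker list. Mir208a, Mir224, Mir19a, Mir499, Mir128-1, Mir128-2, Mir153, Mir205, Mir144, Mir486, Mir146 and the miR-1, miR-133 and miR-124 genes were named after their values were seen. So were Mirlet7i, Mirlet7g, Mir23b, Mir382 and Mir668. The labels call the libraries biological replicates. P-values of the 2 libraries measure counting error only, PCR copies included.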

Additional observations from a re-analysis of the deposited data

How the results depend on the processing

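The 3 members kept their direction, lower in replicate 2, under all 24 alternatives of their ratios (those with edgeR's dispersion for single genes chosen after seeing the data). Dropping the minimum fold or adding edgeR's dispersion leaves a log2 ratio unchanged, so those alternatives could not reverse it. None of the members was called wherever a 2-fold difference was required. Without that minimum the log2 ratios of -0.038 for Mir22 and -0.21 for Mir132 passed. With at least 50 counts in each library, where 280 genes were tested, Mir212 also came under the adjusted p threshold at 0.0491 by the exact binomial test, with a log2 ratio of -0.43 and so below 2-fold. Its adjusted p ranged from 0.0491 to 0.123 over the alternatives with counting error alone. The number of genes called was 12. It was 21 with no count filter, 5 with at least 50 counts, 169 with no minimum fold and 5 with edgeR's dispersion. Mean levels of Mir22 were 9693 CPM with reads of either strand, 11399 CPM without Mir143 in the total and 4524 per 1000000 of all reads, where Mir132 stood at 87.5 and Mir212 at 8.04. Leaving out a replicate gave 10073 to 10527 CPM for Mir22, 183 to 216 for Mir132 and 15.6 to 21.2 for Mir212. With reads of either strand the ranks were 23, 156 and 266, and single replicates gave 21 to 22, 140 to 152 and 248 to 259. Per base of hairpin, an alternative chosen after seeing the data, the log2 ratio of Mir132 over Mir212 was 3.92 and that of Mir22 over Mir132 was 5.17, by the hairpins' lengths alone. Single replicates gave 3.35 to 3.56, 5.61 to 5.78 and, for Mir22 over Mir212, 8.96 to 9.34. The low counts of Mir212 limit its precision. No paired analysis was possible because there is a single group.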
